A study of Mus musculus with 8 samples.

Results

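Ribosomal protein genes, most of which every growing cell transcribes at a high level, were followed across 8 Hi-C libraries. The 76 members were all autosomal protein-coding genes of the mouse (GENCODE vM21, mm10) whose symbol is Rpl or Rps followed by a number and at most 1 trailing letter, together with Rplp0, Rplp1, Rplp2 and Rpsa. They made up 76 of the 20807 autosomal protein-coding genes, with 46 members in the large subunit and 30 in the small subunit. All 76 had a score in all 8 libraries, as did 20713 of the 20807 genes. They lay in 74 bins of 100 kb, because 2 bins held 2 members each, such as the bin of Rps2 and Rpl3l on chromosome 17. Chromosome 7 carried 14 members, chromosomes 9, 11 and 17 carried 7 each, and chromosome 19 carried none.

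Mouse embryonic stem cells (mESCs) were studied by Hi-C, in which neighbouring DNA ends are ligated and sequenced to count contacts between loci, to ask how H3K9 methyltransferases bear on genome folding. Each of the 8 groups held 1 library, so no value here has a replicate of its own. The Setdb1 line is #33-6, a conditional knockout whose H3K9 methyltransferase SETDB1 is depleted on adding 4-hydroxytamoxifen (4-OHT). Setdb1 WT received nothing, and Setdb1 WT + UNC received UNC0642 only. Setdb1 KO received 800 nM 4-OHT for 5 days, and Setdb1 KO + UNC received it for 2 days before UNC0642. No Setdb1 WT library received 4-OHT, so the effect of SETDB1 loss cannot be told apart from that of 4-OHT. As labelled, the KO libraries also differ in days of 4-OHT. UNC0642 blocks the H3K9 methyltransferases G9a and GLP and was used at 2 µM for 3 days throughout. The Suv39h groups were wild-type cells (ADF1-26) and cells of the clone ADF157 lacking SUV39H1 and SUV39H2, each untreated (Suv39h WT, Suv39h DKO) or given UNC0642 (Suv39h WT + UNC, Suv39h DKO + UNC). Since the wild-type and DKO cells come from different clones, the effect of the genotype cannot be told apart from that of the clone. Which of the study's Hi-C repeats each file holds, or whether it holds a pool, is not stated. The bins of the stem cell markers Pou5f1, Nanog, Sox2, Klf4, Esrrb, Zfp42, Tdgf1 and Dppa5a were in A in all 8 libraries, but only 29.1% of all autosomal protein-coding genes were in B in any library, so a place in A does little to check the labelled cell type.

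Ribosomal proteins coat and hold together the ribosomal RNAs of the large and small subunits, the particles that join to translate mRNA. Most are needed in every cell, their genes are transcribed strongly, and their mRNAs start within a run of pyrimidines through which growth signals control their translation. A few have paralogs made mainly in muscle or testis. Compartments are the coarse division of chromosomes into A, which is gene-rich and active, and B, which is gene-poor, inactive and often lies at the nuclear lamina.

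The measurement was the compartment score, the first eigenvector of each autosome's contact map in bins of 100 kb, where a score above 0 marks A and a score below 0 marks B. The score of the bin holding each gene's 5′ end was used. The score has no unit and is smaller on longer chromosomes, so levels of genes on different chromosomes were compared by percentile, the share of scored bins of the same chromosome and library at or below that score.

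Ribosomal protein genes lay high in the A compartment. Only 4 of the 76 members were in B in at least 1 library (5.26%), against 29.1% of all genes. In every library, 3 members were in B (3.95%), against 20.6% of all genes. The 3 were Rpl10l, Rps23 and Rps9, and Rpl15 was the fourth, with a negative score in Suv39h WT alone. The remaining 72 members were in A in all 8 libraries.

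The median of the members' mean percentile over the 8 libraries was 91.5, and 41 of the 76 (53.9%) reached 90 or more. Over all autosomal protein-coding genes the median was 79.2, and 29.5% reached 90. Below the 50th percentile lay 3 members, the same that were in B throughout. Large-subunit members had a median of 91.9 and small-subunit members 90.8, with 25 of 46 and 16 of 30 at 90 or more. Taken library by library, the members' median percentile lay between 90.3 in Setdb1 WT + UNC and 92.0 in Suv39h DKO.

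**Figure D1:**
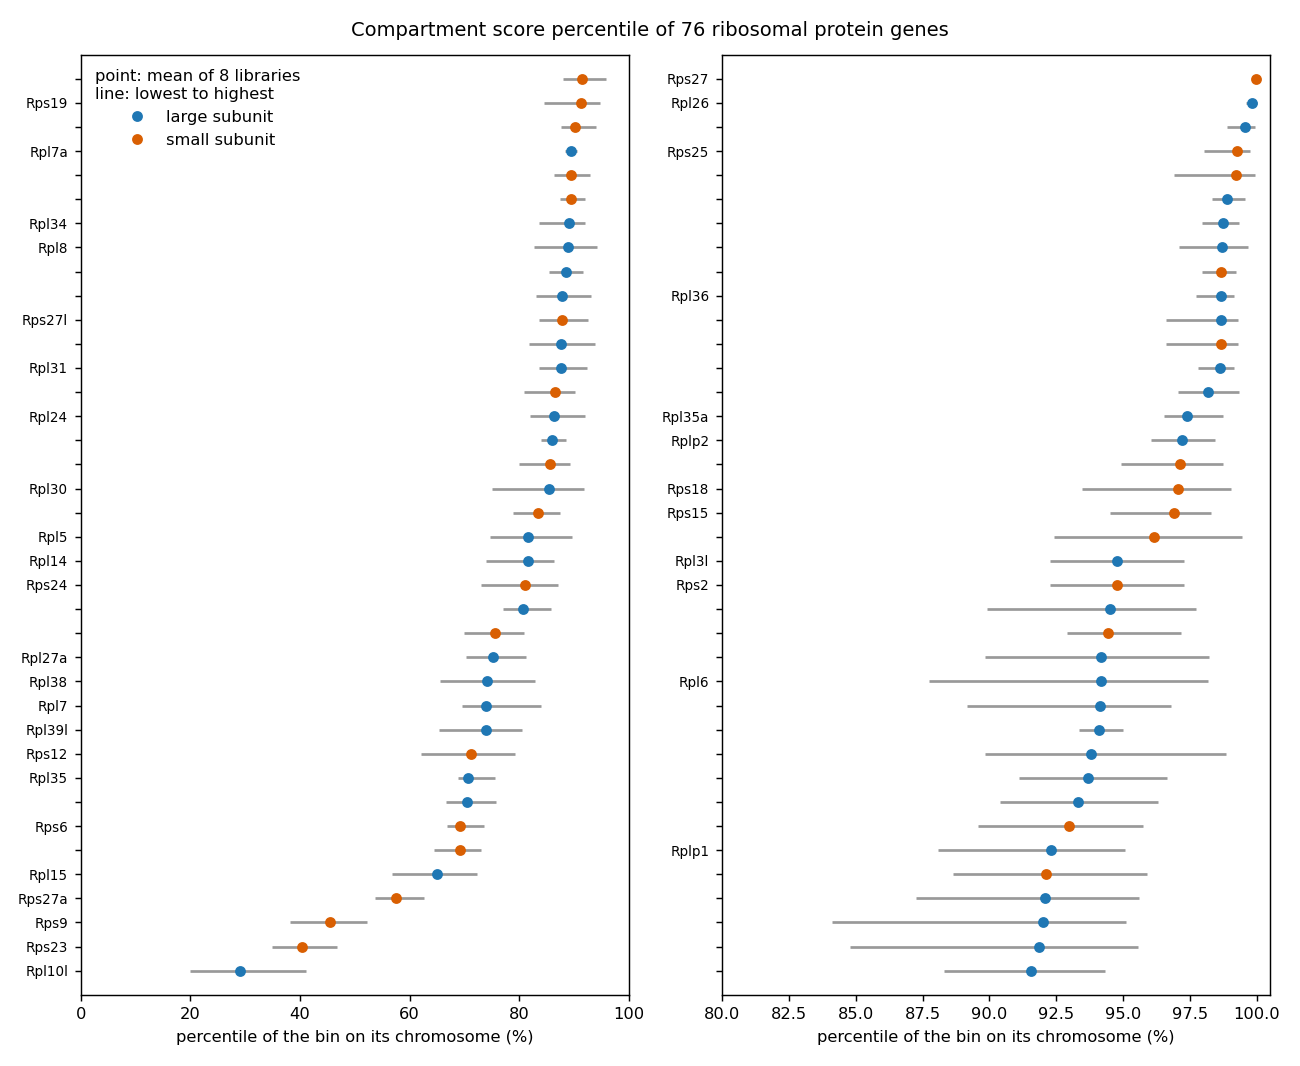
Percentile of the bin's compartment score among the scored bins of its chromosome (horizontal axis, %) for each of the 76 members, the 38 lower at the left and the 38 higher at the right on a narrower axis. Points are the mean of 8 libraries, lines run from the lowest to the highest library, and colour gives the subunit; members the text describes are labelled, of which Rpl10l, Rps23 and Rps9 have means below 50 and Rps27 has the highest.

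**Figure D2:**
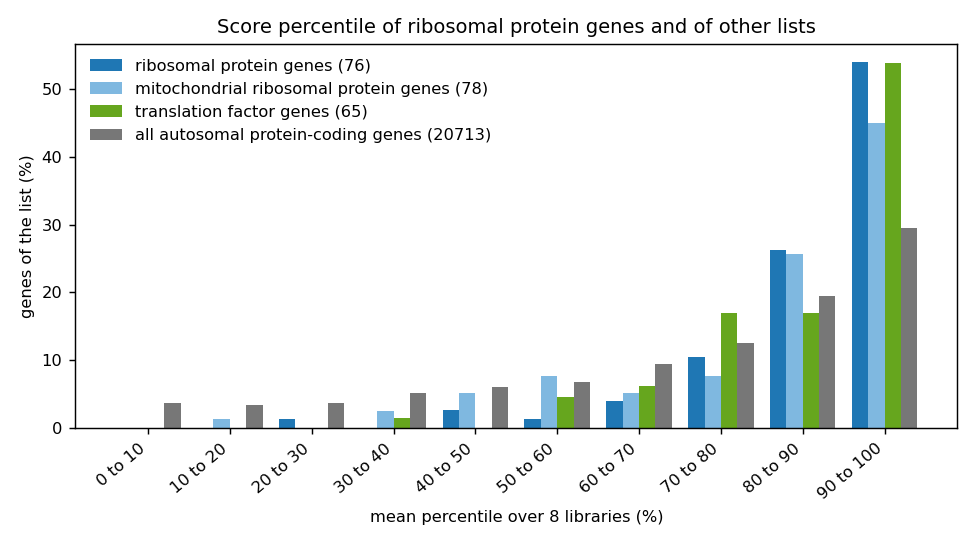
Share of genes (vertical axis, %) in each class of 10 points of the mean percentile over 8 libraries (horizontal axis, %) for ribosomal protein genes, mitochondrial ribosomal protein genes, translation factor genes and all autosomal protein-coding genes. The top class holds 53.9% of ribosomal protein genes and 29.5% of all genes.

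The highest members came from both subunits. Rps27, a zinc-finger protein of the small subunit (chr3:90212522-90213651, minus strand), had the highest mean percentile of the members, 99.96, and its score ran from 0.0650 in Setdb1 KO to 0.0767 in Suv39h DKO. Rpl26, which sits by the exit of the peptide tunnel (chr11:68901583-68906989, plus strand), followed at 99.8 with scores of 0.0496 to 0.0609. Both stayed within 0.42 percentile points of themselves in all 8 libraries. Rps25, a small-subunit protein used by several viral internal ribosome entry sites, averaged 99.2, and its scores ran from 0.0557 to 0.0637. None of these members came near 0 in any library.

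The members in B differed in how far below 0 they lay. Rpl10l, a retrogene copy of the X-linked Rpl10 that is made mainly in testis (chr12:66283379-66284401, minus strand), scored lowest, with a mean percentile of 29.1. Setdb1 WT and Setdb1 KO gave scores of -0.0185 and -0.0275, and with UNC0642 these cells gave -0.0254 and -0.0254. Suv39h WT and Suv39h DKO gave -0.0246 and -0.0157, and with UNC0642 they gave -0.0130 and -0.0196. All 8 libraries placed it well inside B, and the ranges of the lines overlapped.

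Rps23, which reaches into the decoding centre of the small subunit (chr13:90922958-90924950, plus strand), was the lowest member with no known tissue restriction, at a mean percentile of 40.4. Setdb1 WT and Setdb1 WT + UNC gave scores of -0.0135 and -0.0117, and Setdb1 KO and Setdb1 KO + UNC gave -0.0178 and -0.0145. Suv39h WT and Suv39h WT + UNC gave -0.0090 and -0.0073, and Suv39h DKO and Suv39h DKO + UNC gave -0.0157 and -0.0115. Each library with UNC0642 scored above its untreated partner, by 0.0017 to 0.0042, and none of them reached A.

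Rps9, which lines the mRNA entry of the small subunit (chr7:3703993-3706897, plus strand), lay just below 0. Its score was closest to 0 in Setdb1 WT, at -0.00061, and lowest in Setdb1 WT + UNC, at -0.0110. The other 6 libraries lay between -0.0062 and -0.0042, and the mean percentile was 45.4. Centring is inferred to have removed a mean from each chromosome (its implied mean), whose size but not sign the values give. With this mean added, Rps9 was in B in 1 library and not in 8. With it subtracted Rps9 stayed in B in 8, so its side of 0 depended on the centring.

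Rpl15 of the large subunit (chr14:18267823-18271391, minus strand) scored -0.000072 in Suv39h WT, a distance from 0 far smaller than the differences between libraries. The same cells with UNC0642 gave 0.0057, and the DKO cells gave 0.0056 untreated and 0.0156 with UNC0642. The 4 Setdb1 libraries gave 0.0110 to 0.0211. Rps27a, which is made as a fusion with ubiquitin (chr11:29545846-29548109, minus strand), was the lowest member with no negative score, from 0.0013 in Setdb1 WT + UNC to 0.0156 in Setdb1 KO + UNC. Its mean percentile was 57.5 and that of Rpl15 was 65.1.

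**Figure D3:**
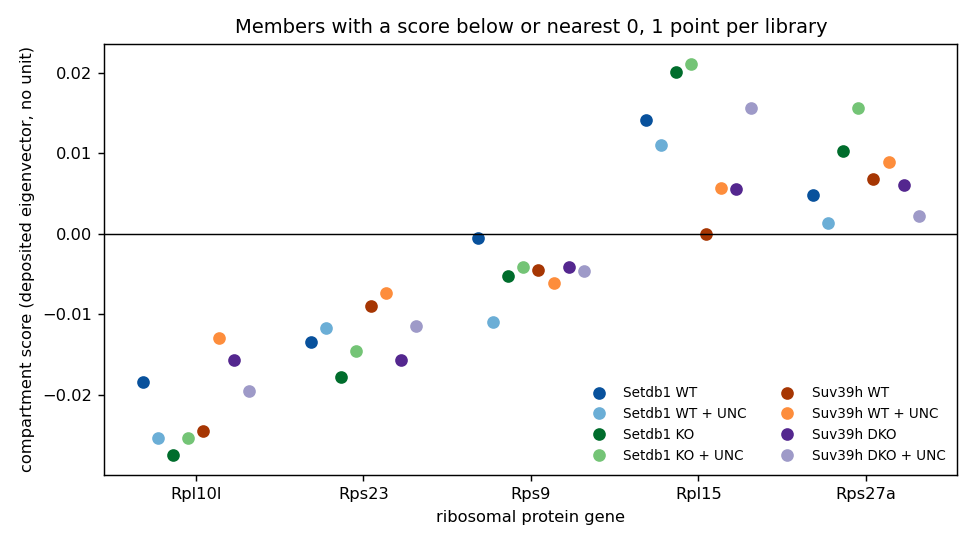
Compartment score (vertical axis, no unit; above 0 is A and below 0 is B) of the 5 members with the lowest mean percentile, 1 point per library and no error bars because each group held 1 library. All 8 points of Rpl10l, Rps23 and Rps9 lie below 0, Rpl15 touches 0 in Suv39h WT, and Rps27a lies above 0 throughout.

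The surroundings of these genes were unlike each other. Rpl10l was the only protein-coding gene to start in its bin, and its bin lay in a run of 38 B bins. The mean score over the 8 libraries was -0.0340 in the bin before, -0.0212 in its own bin and -0.0300 in the bin after. Rps23 shared its bin with the start of Atp6ap1l and lay in a run of 106 B bins, with -0.0199 before, -0.0126 at the gene and -0.0242 after. Both genes thus stood in long B stretches and in a bin closer to 0 than either neighbour.

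Rps9 was the reverse case. Its bin, which also holds the start of Pirb, an inhibitory receptor of immune cells, was 1 of a run of 2 B bins with A on both sides. The mean score was 0.0330 in the bin before, -0.0051 at the gene and -0.0137 in the bin after. Rpl15 began a run of 3 A bins with B on both sides and scored 0.0116 against -0.0132 in the bin before. Its bin also holds the starts of Nr1d2, a clock repressor, and Nkiras1, and the Rpl15 start lies in an intron of Nkiras1 on the opposite strand. Rps27a likewise lay in a run of 3 A bins, with the starts of Prorsd1, Mtif2 and Clhc1, and its start lies in an exon of Clhc1 on the opposite strand.

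A peak of the score at the gene was common among members and among related lists. The bin of the member scored higher than the mean of the 5 bins on either side for 70 of 76 (92.1%), against 68.1% of all genes. It scored higher than the mean of its adjacent bins for 58 of 76 (76.3%), against 63.5%. Above the 5 bins on either side were 92.3% of translation factor genes and 87.2% of mitochondrial ribosomal protein genes. Ribosome assembly and RNA polymerase I genes had 88.4%. Above the adjacent bins these lists had 83.1%, 83.3% and 83.7%, higher shares than that of the members. The median score of the members was 0.0098 above the 5 bins on either side, against 0.0037 for all genes. Going out from the gene, the members' median percentile went from 91.5 in the gene's bin to 88.1 and 88.0 in the adjacent bins and to 79.3 and 80.3 at 5 bins. The 6 members not above their surroundings included Rps9, Rps15, Rps19, Rpl35a and Rpl39l, and Rps9 was the farthest below them, by -0.0215.

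**Figure D4:**
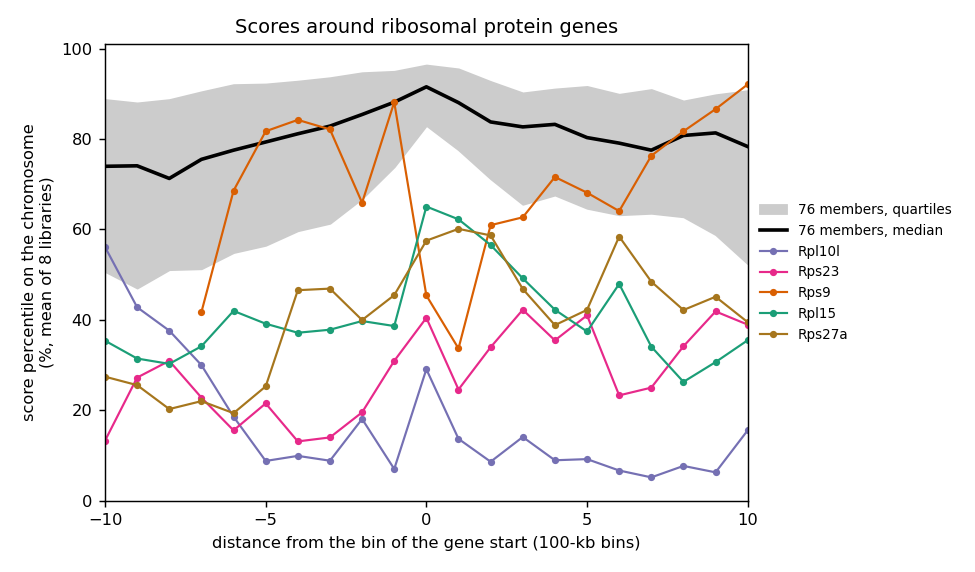
Mean percentile over 8 libraries (vertical axis, %) of the bins around each member, by distance from the bin of its start in 100-kb bins (horizontal axis). The black line and grey band are the median and quartiles of the 76 members, highest at 0; Rpl10l and Rps23 peak within low surroundings, and Rps9 dips within high ones.

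The members' bins held more gene starts and more G and C at the median than those of all genes, as did some related lists. A median of 3.5 protein-coding genes started in a member's bin, against 3 for all genes, 4 for mitochondrial ribosomal protein genes and 3 for translation factor genes, and 3 members (3.95%) were alone in their bin, against 24.4% of all genes. Rpl10l and Rpl31 were among those 3. The median GC content of the bin was 47.1% for members, 46.1% for both mitochondrial ribosomal protein and translation factor genes and 44.5% for all genes, and it was 39.3% for Rpl10l, 41.4% for Rps23 and 43.9% for Rps9. Of the 5 members with a GC content below that of Rps23, 4 were in A in every library, with mean percentiles of 57.5 to 83.4, and the part of GC content in the scores was not tested. Members lay a median of 10 bins from the nearest bin of the opposite sign, against 7 for all genes, and 13 of 76 (17.1%) lay within 2 bins, against 21.7%.

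The promoters of the highest member and of the members in B are shown here because they let the start sites of genes in A and B be set side by side. They run from 45 bases before the RefSeq start to 15 bases from it, 5′ to 3′ on the gene's strand, from RefSeq (GRCm38.p6). Capitals mark the longest run of C and T that touches the window from 10 bases before to 20 bases after the start. RefSeq's start differs from that of GENCODE for some genes but lies in the same bin.
Rps27, chr3:90213634-90213693, minus strand: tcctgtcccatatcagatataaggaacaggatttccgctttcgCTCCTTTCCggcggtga
Rpl15, chr14:18270972-18271031, minus strand: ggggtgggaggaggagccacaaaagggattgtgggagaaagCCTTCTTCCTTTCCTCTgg
Rps9, chr7:3703996-3704055, plus strand: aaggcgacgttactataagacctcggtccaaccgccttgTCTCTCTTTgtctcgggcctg
Rps23, chr13:90923077-90923136, plus strand: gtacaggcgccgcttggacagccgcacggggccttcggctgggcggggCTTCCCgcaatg
Rpl10l, chr12:66284387-66284446, minus strand: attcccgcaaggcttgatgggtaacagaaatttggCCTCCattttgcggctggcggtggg

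The run was 17 bases in Rpl15, 9 in Rps27 and Rps9, 6 in Rps23 and 5 in Rpl10l. Promoters of 300 bases were at hand for 56 of the 76 members and 15631 of all genes. A run of at least 8 bases was found in 29 of 56 members (51.8%) and in 19.4% of all genes. On either strand, GCGGAA stood in 25 members (44.6%, against 16.8% of all genes), CCGGAAG in 24 (42.9%, against 13.6%) and AAGATGG in 9 (16.1%, against 7.3%). GCGGAA and CCGGAAG share the letters CGGAA, but no single CGGAA belongs to both, while AAGATGG can overlap the end of either. None of the 3 motifs was found in the 300 bases of 14 members (25%, against 69.1% of all genes). Rps23, Rps9 and Rpl10l were among these 14, and the other 11 were in A in every library. Rpl15 held GCGGAA and CCGGAAG, and Rps27 held GCGGAA and AAGATGG.

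The members include 4 paralogs of other ribosomal proteins that are known for tissue-restricted expression or a stress role, and their scores ranged from B to high in A. Rpl3l, made in heart and skeletal muscle, averaged the 94.8th percentile, but its bin is that of Rps2, a small-subunit protein at the mRNA entry, so the score cannot tell the pair apart. That bin scored 0.0520 in Suv39h DKO to 0.0595 in Setdb1 WT + UNC. Rps27l, a target of p53, averaged 87.7, with scores of 0.0336 to 0.0453. Rpl39l, made in male germ cells, averaged 73.9, with scores (SD 0.0085, n = 8) from 0.0113 in Suv39h WT to 0.0368 in Setdb1 KO + UNC. Rpl10l was thus the only paralog in B.

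Other genes of the translation pathway were also high in A. Of 78 mitochondrial ribosomal protein genes, which serve the separate ribosome of mitochondria, 13 were in B in at least 1 library (16.7%) and 6 in every library, and their median percentile was 89.3. Of 65 translation factor genes, 3 were in B in at least 1 library (4.62%) and Eif3j2 was in B in every library, with a median percentile of 90.4. Of 43 ribosome assembly and RNA polymerase I genes, Nop10, Pno1 and Wdr75 were in B in every library, and the median was 89.6. The 4 ribosomal protein paralogs outside the naming rule, Rpl22l1, Rpl36al, Rpl7l1 and Rpl9-ps6, were in A in all 8 libraries, but Rpl36al shares the bin of a member, so its score is not a separate value.

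Differences between libraries were then counted at a step of 0.01 in score, 1 library against 1 and with no test. Of the 76 members, 16 (21.1%) differed by at least 0.01 in any of the 8 treatment or genotype pairs, against 27.8% of all genes, and 60 differed by less in all 8. These pairs share libraries: each library enters 1 pair for UNC0642 and 1 for its genotype, and the WT libraries of the lines are also set against each other. No member moved from A to B in any of the 8 pairs. Rpl15 went from its score of -0.000072 in Suv39h WT to above 0 with UNC0642 and with loss of SUV39H1/2, and no other member changed sign.

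With UNC0642 few members passed the step in each background, and few of all genes did. In Setdb1 WT, 0 members were higher and 3 lower by at least 0.01, against 1.97% and 5.72% of all genes. The 3 were Rps12 of the small subunit, Rps9 and Rpl30 of the large subunit. In Setdb1 KO, 0 members passed the step in either direction, against 0.768% higher and 0.55% lower. In Suv39h WT, 3 were higher (Rps24, Rpl39l and Rpl10l) and 0 lower, against 2.33% and 1.97%. In Suv39h DKO, 2 were higher (Rpl14 and Rpl15) and 0 lower, against 3.1% and 3.37%. That split depended on the centring of the scores: adding back each chromosome's implied mean gave 4 higher and 0 lower, subtracting that mean gave 1 and 2, and there were 1 and 1 at a step of 10 percentile points. In Setdb1 WT, subtracting the mean gave 1 higher and 3 lower. No member passed the step in more than 1 of these 4 backgrounds, but the counts were small and the same share over all genes was not taken.

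The member with the largest UNC0642 difference was not the same in any pair of backgrounds, which was not set against other genes. Rps12 (chr10:23785183-23787275, minus strand) had the largest lower value in Setdb1 WT, 0.0210 untreated and 0.0054 treated, and Rpl31 of the large subunit the largest higher value, by 0.0099. In Setdb1 KO, Rpl27a differed by -0.0089 and Rpl24 by 0.0075, both of the large subunit. In Suv39h WT, the largest upward difference was that of Rps24, 0.0157. In Suv39h DKO, Rpl7 differed by -0.0093 and Rpl14 by 0.0131. The values of Rps24, a protein needed for processing of the small-subunit RNA, were 0.0197 in Suv39h WT and 0.0353 with UNC0642, and the other 6 libraries lay between 0.0260 and 0.0351, so the untreated Suv39h WT library was the lowest of the 8.

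Few members kept a direction through all 4 UNC0642 pairs. Higher in every pair were 2 members, Rpl31 and Rps23, against 5.78% of all genes, and lower in every pair were 2, Rpl35 of the large subunit and Rps15 of the small subunit, against 6%. Rpl31 was higher by 0.0099, 0.00020, 0.0064 and 0.0015 in Setdb1 WT, Setdb1 KO, Suv39h WT and Suv39h DKO. Rpl35 differed by -0.0018, -0.0023, -0.0047 and -0.000045 in the same order. For both Rpl31 and Rpl35, 1 of the 4 pairs was thus near 0. Rps23 was higher by 0.0018, 0.0033, 0.0017 and 0.0042, and Rps15 differed by -0.0013, -0.0030, -0.0013 and -0.0012, so no pair of these members was as near 0.

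Setdb1 KO against Setdb1 WT gave unlike counts without and with UNC0642. Without it, 0 members passed 0.01 in either direction, against 1.09% of all genes higher and 0.84% lower. The largest differences were those of Rpl10l (-0.0091) and Rplp1, a protein of the stalk that recruits elongation factors (0.0065). At a step of 10 percentile points, 0 members were higher and 1 lower in this pair, Rpl10l, by -14.3 points. With UNC0642, 6 members were higher and 1 lower, against 8.27% and 3.13%. The 6 were Rps12 (0.0224), Rpl30 (0.0168), Rps27a (0.0143), Rpl24 (0.0128), Rpl38 (0.0105) and Rpl15 (0.0101), and the lower was Rps27l (-0.0109). At a step of 10 percentile points, or of 0.4 SD of the chromosome's scores, 4 members were higher and 0 lower, and adding back each chromosome's implied mean gave 6 higher and 0 lower.

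The Setdb1 WT + UNC library is the control of that comparison and also the treated library in which Rps12, Rps9 and Rpl30 were lower. In Setdb1 WT + UNC the score of Rps12 was 0.0054, against 0.0210 in Setdb1 WT and 0.0250 (untreated) and 0.0278 (UNC0642) after SETDB1 loss, so a single library stood below the other 3. Without the pairs that use Setdb1 WT + UNC, 10 and not 16 members passed the step in any pair. The part of that library in the counts was not tested.

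In Setdb1 KO against Setdb1 WT, 18 members were higher and 14 lower in both pairs, against 26.2% and 24.8% of all genes. The 2 largest mean differences upward were those of Rps12 (0.0040 and 0.0224) and Rps27a (0.0055 and 0.0143). The 2 largest downward were those of Rps27l (-0.0025 and -0.0109) and Rps18 of the small subunit (-0.0071 and -0.0025).

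Between Suv39h DKO and Suv39h WT, 1 member was higher (Rpl8, 0.0118) and 1 lower (Rpl34, -0.0136) without UNC0642, against 3.21% and 3.25% of all genes. With UNC0642, 1 was higher (Rpl38, 0.0128) and 2 lower (Rpl7, -0.0131, and Rpl6, -0.0109), against 2.38% and 3.76%. At a step of 10 percentile points the counts without UNC0642 were 2 higher and 0 lower. Adding back each chromosome's implied mean gave 1 higher and 2 lower without UNC0642, and 2 and 2 under UNC0642. All 5 members past 0.01 in the deposited scores belong to the large subunit, as do 46 of the 76 members, and a difference between subunits was not tested. Rpl38 is known for its part in translating Hox mRNAs. Higher in both pairs were 20 members and lower in both were 23, against 27.2% and 28.6%. Rpl38 (0.0051 and 0.0128) and Rpl15 (0.0057 and 0.0099) had the largest mean differences upward, and Rps27l (-0.0098 and -0.0086) and Rpl6 (-0.0066 and -0.0109) the largest downward.

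The untreated lines themselves differed at 6 members. In Suv39h WT against Setdb1 WT, 0 members were higher and 6 lower by at least 0.01, against 3% and 8.6% of all genes. The 6 were Rpl39l (-0.0196), Rps24 (-0.0154), Rpl15 (-0.0141), Rps12 (-0.0126), Rpl8 (-0.0103) and Rps6 of the small subunit (-0.0101). The largest upward difference was that of Rplp1, 0.0084. Of these, 5 (Rps24, Rpl39l, Rpl15, Rpl8 and Rps6) had their lowest score of the 8 libraries in Suv39h WT and Rps12 had it in Setdb1 WT + UNC, and Rps24, Rpl39l and Rpl8 were also members that passed the step upward in a pair with Suv39h WT as the control. At a step of 10 percentile points 1 member was higher and 4 were lower.

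**Figure D5:**
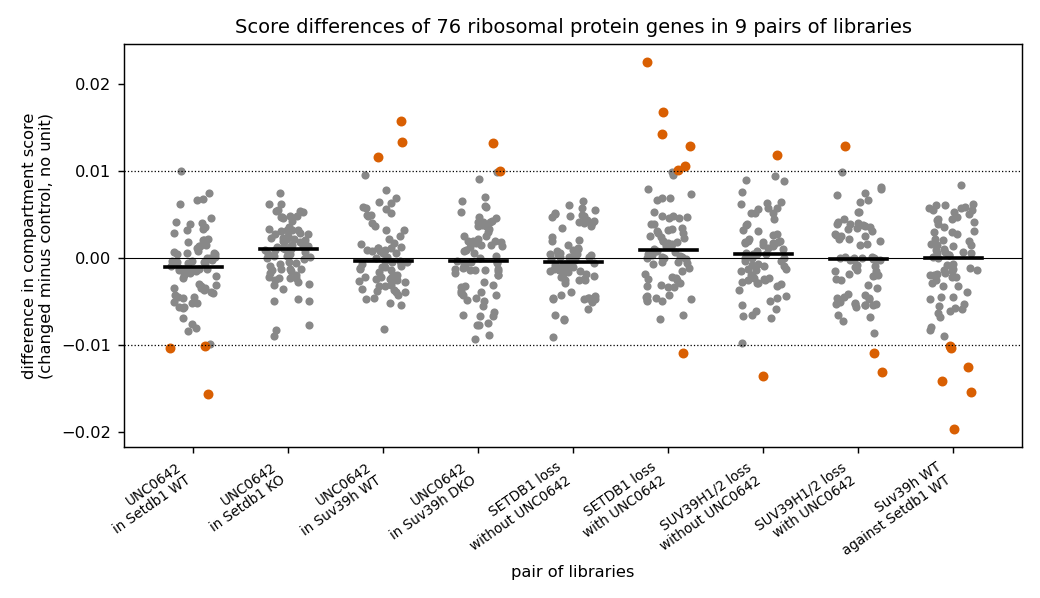
Difference in compartment score (vertical axis, no unit) of each of the 76 members in 9 pairs of libraries (horizontal axis), 1 point per member, with the median as a black bar. Dotted lines mark 0.01 in either direction and orange points lie beyond them: 3, 0, 3, 2, 0, 7, 2, 3 and 6 members from left to right.

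In the per-bin test no member passed. Its replicates were the 4 backgrounds for UNC0642, while for the loss of SETDB1 or SUV39H1/2 the untreated and the treated library of the same cells stood as the replicates, 2 against 2. For the line by UNC0642 term, UNC0642 itself and the loss of either SETDB1 or SUV39H1/2, limma called 0 of 23972 bins (0%) and 0 members at an adjusted p of 0.05. At an unadjusted p under 0.05 limma gave 0 members for UNC0642, 7 for SETDB1 loss, 4 for SUV39H1/2 loss and 1, Rps24, for the line by UNC0642 term. The same share over all bins was 4.95%, 9.1%, 9.6% and 3.67%. Rpl15, Rpl38 and Rps27l were in both genotype sets, with Rpl5, Rps12, Rps27a and Rpl30 for SETDB1 and Rpl6 for SUV39H1/2. The 7 for SETDB1 loss were near the share of all bins, and the 4 for SUV39H1/2 loss were below it. Both sets came from the same fit. How many of all bins passed in both was not counted, so the overlap is no result about the members. The lowest adjusted p of a member in limma was 0.957 for UNC0642 (Rpl31, 0.0045 ± 0.0022 SE), 0.388 for SETDB1 loss (Rps27a, 0.0099 ± 0.0031 SE) and 0.392 for SUV39H1/2 loss (Rpl6, -0.0087 ± 0.0027 SE). For the line by UNC0642 term it was 1.00, and Rps24 had 0.0170 ± 0.0042 SE. On simulated scores the tests of UNC0642, SETDB1 loss and SUV39H1/2 loss did not recover changes of 0.01, so differences of the size seen in most members were not detectable with these libraries. The line by UNC0642 term was not simulated.

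Scores of members on different chromosomes are not on 1 scale, so their spread over the 8 libraries is given as percentiles of the chromosome's bins. Rpl10l had the widest range, from the 19.98th to the 41.1st percentile (21.1 points), followed by Rpl38 of the large subunit (17.3 points, 65.6 to 82.9) and Rps12 (17.1 points, 62.1 to 79.2). Rps27 and Rpl26 had the narrowest, 0.064 and 0.42 points, and both lay at the top of the scale, where a percentile cannot go higher.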

How the data were processed

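The samples were 8 Hi-C libraries of mouse embryonic stem cells, 1 per group. The deposited values are a compartment score per 100-kb bin and library: per the labels and methods, the authors cut chromatin with DpnII, aligned reads to mm10, kept mapping quality above 10 and computed with Juicer Tools, from KR-normalised maps within each autosome, the first eigenvector. The score has no physical unit. Each chromosome's scores average 0 and resemble a unit-length vector with its mean subtracted, a step inferred from the values. The files held no read counts, and the read totals the study lists were not used here because which repeat a file holds is not stated, so no counting interval was given. Bin ends were checked against GRCm38 chromosome lengths, which mm10 shares.

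Each gene took the score of the bin with its 5′ end (GENCODE vM21). A gene was in B where the score was below 0. Percentiles were taken among scored bins of the same chromosome and library, because longer chromosomes carry smaller scores. Pairs of libraries were compared by difference, counting 0.01 or more. Across 23972 bins, limma (3.58.1, R 4.3.3) fitted UNC0642 with the line and genotype of the cells as a block, Benjamini-Hochberg adjustment at 0.05, and in another fit an interaction of line and UNC0642. On simulated scores, the fit recovered 96.5% of UNC0642 changes of 0.02 and 0% of 0.01. For SETDB1 it recovered 80% and 0%, and for SUV39H1/2 81% and 0%, of changes of the same sizes, with 0 to 12 false calls among the 23972 bins. P-values measure the spread among these libraries only. Python 3.11.15 with numpy 2.4.6, pandas 2.3.3 and matplotlib 3.10.9 was used for the rest.

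The members, lists and naming rule were chosen with earlier results of these data known. Named genes were members below 0 in any library, the 5 highest and 5 lowest by mean percentile, the most different members of each comparison, members sharing a bin and paralogs with restricted expression or a stress role, and the values of some of these are not reported here. Promoter sequences were from RefSeq (GRCm38.p6). The alternatives covered centring, scaling, averaging over 500 kb, the bin rule, thresholds, limma settings and leaving out libraries. The percentile difference and the leaving out of single libraries were added after the data were seen.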

Additional observations from a re-analysis of the deposited data

How the results depend on the processing

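Of 52 recomputed counts that did not come from limma, 47 stayed within 1.5 times of the reported count. Several alternatives could hardly move these counts. The bin of the lower coordinate, the gene body and shared bins counted once gave the reported counts. A fall from 3 to 2 members in B also passed as within 1.5 times, so the tally is a weak sign of stability. The remaining 74 recomputed counts were limma counts of 0 in the reported fit, of which 73 stayed at 0. As limma could not detect differences of 0.01 here, this is no sign of stability. With scores averaged over 500-kb blocks, 7 members were in B in at least 1 library in place of 4 (Rpl24, Rpl35, Rps12 and Rps27a joined, Rps9 left), and 6 in place of 16 members differed by at least 0.01 in any of the 8 pairs. That count was 1 at a difference of 0.02 and 56 at 0.005. Leaving out single libraries gave 10 to 16 members, the lowest without Setdb1 WT + UNC, 3 to 4 members in B in any library and 3 in every library. Rps9 was in B in 8 libraries as deposited, in 1 with the implied chromosome mean (0.00165 to 0.0112) added and in 8 with it subtracted. It was in B in 0 with 500-kb blocks and in 3 at a score under -0.005. Rpl10l and Rps23 stayed in B in every library under each alternative of centring, block size, bin rule and threshold. Of 108 recomputed member counts for single pairs, 28 moved by more than 1.5 times. Of 37 limma alternatives, 1 called bins: without the untreated pair, SETDB1 loss gave 153 bins and 0 members. That fit sets 1 library against 1 and assumes that they vary like the other groups, from which its spread comes. Leaving out pairs gave 0 to 153 bins for SETDB1 loss and 0 bins for UNC0642 and SUV39H1/2 loss. The lowest adjusted p of a member ranged from 0.0873 to 1.00 over the alternatives. The UNC0642 fit paired treated with untreated libraries of the same line and genotype, and without this block it also called 0 bins. The causes of these shifts were not tested.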
